A study of Mus musculus with 6 samples.

Results

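Runx1 was called at 8433 genomic regions in lung fibroblasts of sham-injured mice and again 14 days after bleomycin (D14), but in none of them 56 days after bleomycin (D56). These regions came from 3 Runx1 peak lists, 1 for each condition. Peaks on chromosomes 1 to 19 that overlapped by 1 bp or more were joined into 56619 union regions, and those that held a sham peak and a D14 peak and no D56 peak were kept (14.9% of the union). They were thus chosen by the presence or absence of peak calls in the same 3 lists whose folds and pileups are given below. They are called D56-negative regions below. The 13454 regions with a peak in each of the 3 libraries are called 3-library regions, and both kinds together, 21887 regions, are called shared regions. The D56-negative regions were thus 38.5% of the shared regions, a share that the choice itself fixes. They took up 15.6% of the D14 peaks and 34.8% of the sham peaks. A further 32186 regions were called at D14 alone and 2004 in sham alone.

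The study used chromatin immunoprecipitation and sequencing (ChIP-seq) of Runx1 in GFP+ lung cells of Col1a2-CreERT2;mTmG mice. The groups were sham injury, D14 and D56 after intratracheal bleomycin, an agent that injures the lung and causes fibrosis. Each group had 1 Runx1 ChIP library and 1 input library, 6 libraries in all, and the same genotype was used in each. In this model tamoxifen-induced Cre under Col1a2 control switches the mTmG reporter from red to green, so green cells are those in which Col1a2 was active at recombination, together with their progeny. The number of mice behind each library is not stated in these sources. Peak lists hold no expression values, so the fibroblast label could not be checked against marker transcripts. Fewer cells with bound Runx1 and less Runx1 per cell cannot be told apart.

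RUNX1 is a transcription factor that binds DNA through its Runt domain, with the core-binding factor subunit Cbfb as its partner, at sites that hold the core TGTGGT or the longer TGTGGTT. It is best known from blood cell development, where it works beside AP-1 and ETS factors and can recruit both activators and corepressors. After bleomycin, lung fibroblasts lay down collagen and take on contractile features of myofibroblasts, and in mice this response partly resolves with time. TGF-beta signalling is its best studied driver.

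Promoters of 4 genes are shown as examples of DNA met by D56-negative regions where a sequence was at hand, and not as typical of them. These 4 were chosen after their values were seen, because their genes are known in fibroblasts and because Meox2 and Ptgs2 carry a RUNX core and Col6a1 an AP-1 site. Each is given 5′ to 3′ as the 250 bases before a RefSeq transcript start in build GRCm38.p6 (mm10). Capitals mark TGTGGT or its reverse complement ACCACA and the AP-1 site TGANTCA, and the Acta2 sequence holds none of these. Counted from the first base shown, the D14 peak summit was at base 259 for Ptgs2 and 300 for Acta2. Both lay past the 250 bases shown, while the sham summits were at bases 154 and 240. The Ptgs2 core lay on the 5′ side of both Ptgs2 summits and under neither.
Meox2 promoter, chr12:37108290-37108539, plus strand: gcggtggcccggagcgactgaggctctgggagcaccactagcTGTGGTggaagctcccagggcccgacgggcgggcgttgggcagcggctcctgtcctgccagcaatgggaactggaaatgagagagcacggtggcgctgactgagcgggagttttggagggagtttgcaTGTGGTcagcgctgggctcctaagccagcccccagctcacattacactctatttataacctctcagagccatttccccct
Ptgs2 promoter, chr1:150099781-150100030, plus strand: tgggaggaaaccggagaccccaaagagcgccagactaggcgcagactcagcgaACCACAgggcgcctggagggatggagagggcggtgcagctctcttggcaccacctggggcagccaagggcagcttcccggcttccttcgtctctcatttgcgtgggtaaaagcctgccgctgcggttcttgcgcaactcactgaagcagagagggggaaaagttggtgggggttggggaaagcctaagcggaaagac
Col6a1 promoter, chr10:76726045-76726294, minus strand: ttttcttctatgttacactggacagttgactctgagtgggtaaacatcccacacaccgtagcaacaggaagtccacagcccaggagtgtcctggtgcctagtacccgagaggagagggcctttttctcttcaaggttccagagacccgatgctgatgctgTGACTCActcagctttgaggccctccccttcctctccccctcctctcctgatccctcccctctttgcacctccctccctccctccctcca
Acta2 promoter, chr19:34255374-34255623, minus strand: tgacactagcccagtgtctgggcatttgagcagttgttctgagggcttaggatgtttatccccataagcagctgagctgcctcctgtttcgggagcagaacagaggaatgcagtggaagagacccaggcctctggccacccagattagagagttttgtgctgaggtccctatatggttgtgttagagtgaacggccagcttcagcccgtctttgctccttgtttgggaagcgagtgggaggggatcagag

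Meox2 encodes a homeobox factor that restrains proliferation, and its promoter holds TGTGGT at 2 places. Its region, chr12:37108234-37108794, had a fold enrichment of 12.8 in the D14 list and 4.91 in the sham list. Fold enrichment is the authors' ratio of the fragment pileup at the peak summit to the local background. It was made for each library apart, so a value describes a peak within its own list and cannot be set against that of another library. Meox2 had no other Runx1 region of any kind in its body or within 10 kb. Ptgs2, the inducible cyclooxygenase that makes prostaglandins, likewise had a single region, chr1:150099643-150100414, with a D14 fold of 12.4 and a sham fold of 6.39. Col6a1, a chain of the beaded-filament collagen VI, had a D14 fold of 9.63 and a sham fold of 5.05 at its promoter, beside 2 other regions that were called in all 3 libraries. Acta2, the smooth muscle actin that marks myofibroblasts, had a D14 fold of 11.8 and a sham fold of 4.68 at its promoter and no D56 peak within 10 kb of the gene.

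The D56-negative regions were the weaker ones among the shared regions in both lists. Their median fold was 6.21 in the D14 list, against 13.3 for 3-library regions, and 4.33 in the sham list, against 6.50. Their median pileup, the number of fragments stacked at the summit after scaling to the input, was 41 at D14 and 27 in sham, against 95 and 53 for 3-library regions. They spanned a median of 381 bp, against 657 bp. These values are close to what the choice used and are given as a description. The overlap in strength between the classes was broad. D56-negative folds ran up to 24.8 at D14 and 13.8 in sham, and the weakest 3-library region had a fold of 2.28 at D14 and 2.14 in sham.

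**Figure D1:**
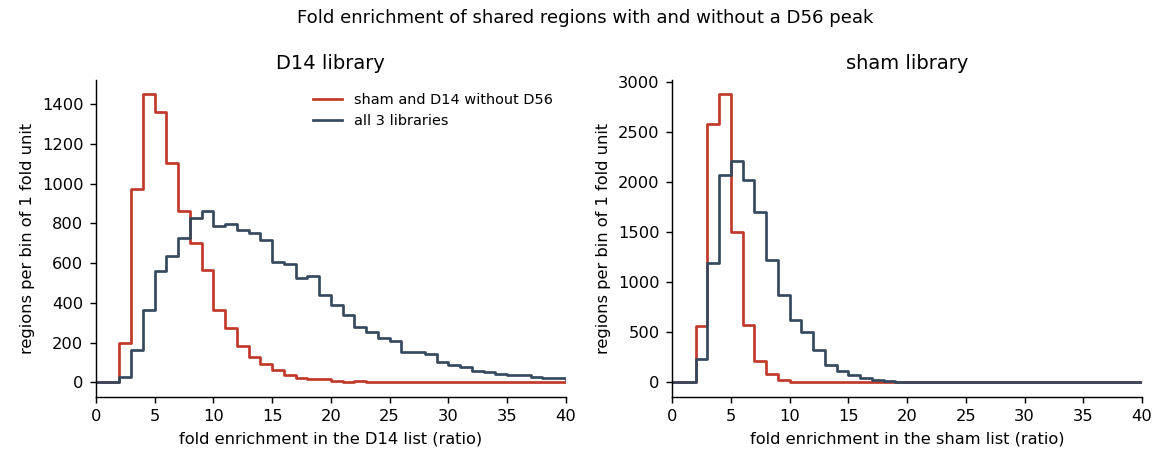
Number of regions per bin of 1 fold unit against fold enrichment in the D14 list (left) and the sham list (right), for D56-negative regions (red) and 3-library regions (dark). The red curves peak at lower folds, with medians of 6.21 and 4.33 against 13.3 and 6.50, and overlap the dark curves; folds above 40 are not drawn.

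The choice asked that the sham and D14 peaks of a D56-negative region be joined by overlap. Their median lengths were 266 bp in sham and 329 bp at D14, so close summits follow in part from the choice. In 8123 of the 8433 regions each library had a single peak, and the summits were a median of 39 bp apart, against 31 bp in 3-library regions. They were within 50 bp of each other in 60.6% of these D56-negative regions and in 72.4% of the 3-library regions counted in the same way. The nearest D56 peak was a median of 20.2 kb away. It lay within 1 kb at 849 D56-negative regions (10.1%), within 100 bp at 19, and farther than 10 kb at 5480. On the other side of the choice, 82 of the 3-library regions had a D56 peak that only just passed the authors' cutoff, with a −log10 q-value under 2.5. Their median fold was 8.38 at D14 and 4.91 in sham, both between the medians of the D56-negative and the 3-library regions.

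The D56 library had the smallest input. Tags counted in the file headers numbered 39609538 to 49312043 in the sham and D14 inputs and 19949187 in the D56 input, and ChIP tags 48816721 in sham, 78744701 at D14 and 49669125 at D56. Since larger samples were scaled to smaller ones, pileups and local backgrounds were scaled to 50.4% for sham and to 40.5% for D14 to ask which peaks would still pass the lowest pileup of the D56 list and its lowest p-value, recomputed from pileup and local background for all lists. In the D14 list 82.9% of D56-negative regions passed (82.1 to 83.7), against 98.7% of 3-library regions. In the sham list 75.1% passed (74.2 to 76.0), against 97.1%. Both held for 5365 D56-negative regions, and among shared regions that passed in both lists the D56-negative share was 29.4% (28.7 to 30.02). Ranges in brackets are 95% Wilson intervals, which hold counting error alone. This scaling was added after the data were seen. A region that passed it is called callable at the D56 depth below, in the sense of this scaling alone. With each list limited to its 14704 strongest peaks by p-value, the length of the D56 list, 886 of 10877 shared regions lacked a D56 peak (8.15%), and 41.2% of those lay within 1 kb of a gene end. With 1 library per condition no test between conditions was possible.

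Position in the genome was not used to choose the regions. Gene ends were within 1 kb in 27.0% of D56-negative regions (26.0 to 27.9), while 46.0% lay inside a gene and 27.1% outside genes. The 3-library regions lay at gene ends in 62.2% of cases (61.3 to 63.0), those called at D14 alone in 19.9% (19.4 to 20.3), and those called in sham alone in 20.3% (18.6 to 22.1). By position D56-negative regions were therefore nearer to the regions called in 1 library than to the 3-library regions. The median distance to a gene end was 5.44 kb for D56-negative regions and 0 kb for 3-library regions. Transcript starts gave a like picture, as 20.5% of D56-negative regions and 54.9% of 3-library regions lay within 1 kb of a start in the RefSeq promoter table. Read the other way, 21.4% of shared regions at gene ends lacked a D56 peak (20.6 to 22.2), against 54.4% inside genes (53.3 to 55.6) and 55.3% outside genes (53.7 to 56.8).

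**Figure D2:**
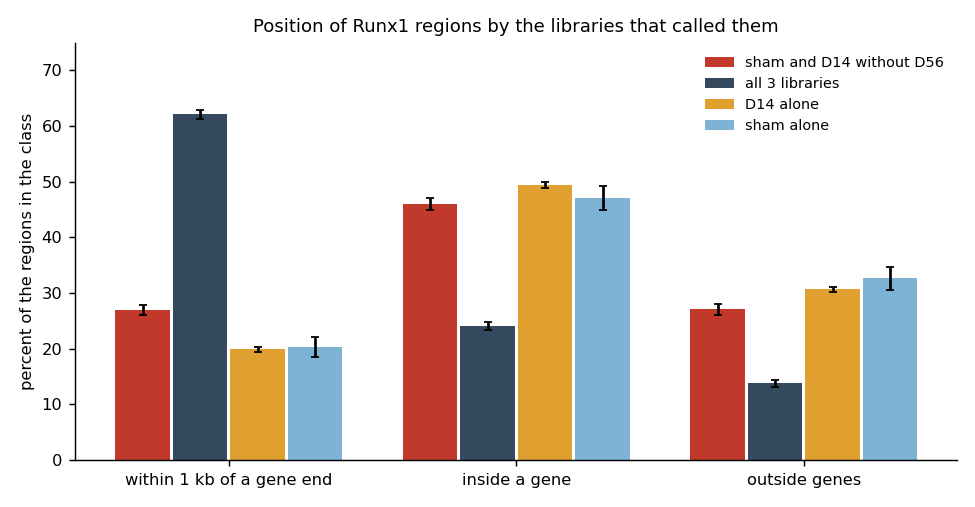
Percent of regions within 1 kb of a gene end, inside a gene and outside genes, for D56-negative regions (red), 3-library regions (dark), regions called at D14 alone (yellow) and in sham alone (blue), with 95% Wilson intervals. At gene ends the red bar stands at 27.0% and the dark bar at 62.2%.

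Regions at gene ends were also stronger, so position was read within 10 bins of equal size by fold enrichment. Ranked by sham fold, the share without a D56 peak was 69.4% in the lowest bin and 0.777% in the highest, where it rested on 17 of 2189 regions. Away from gene ends the share was higher in each of the 10 sham bins, for instance 58.8% against 27.7% at gene ends in bin 5. Ranked by D14 fold the picture depended on strength. In the lowest bin 84.0% of regions away from gene ends and 85.3% of those at gene ends lacked a D56 peak, and the intervals overlapped in the lowest 4 bins. In bin 6 the shares were 36.9% away from and 24.4% at gene ends, and in bin 8 they were 17.6% away from and 6.26% at them. In the highest bin the shares rested on 3 of 228 regions away from gene ends and 5 of 1961 at them, with overlapping intervals. The intervals by position at like D14 fold were thus apart in bins 5 to 9 alone.

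**Figure D3:**
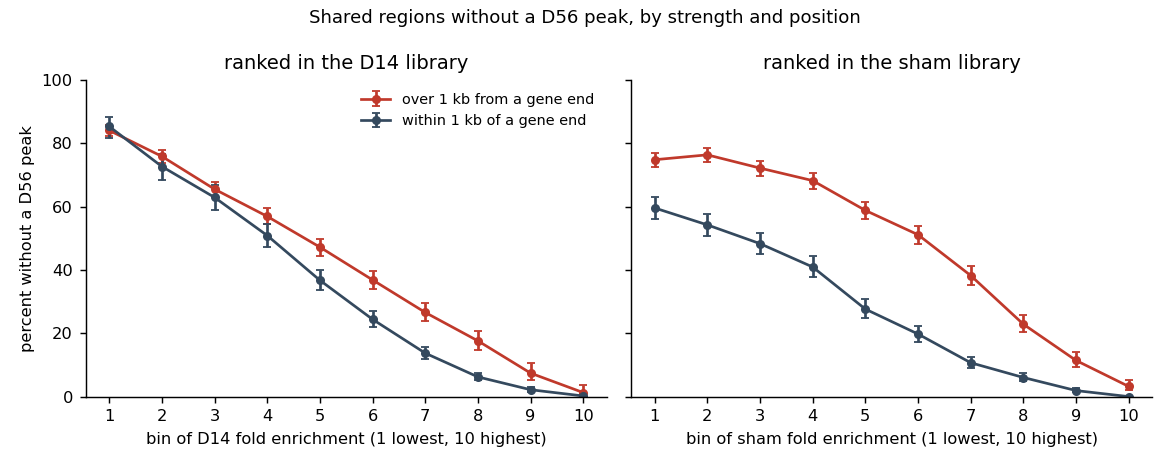
Percent of shared regions without a D56 peak in each of 10 equal bins of D14 fold (left) and of sham fold (right), over 1 kb from a gene end (red) and within 1 kb of one (dark), with 95% Wilson intervals. By sham fold the red points lie above the dark ones in all 10 bins, while by D14 fold the intervals are apart in bins 5 to 9 alone.

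The strongest D56-negative regions were mostly away from gene ends in the sham ranking. Of the 15 with the highest sham fold, 9 lay inside genes, 5 outside and 1 at a gene end, and 14 were callable at the D56 depth. Arf3, a Golgi GTPase, held the highest, with a sham fold of 13.8 and a D14 fold of 6.95 (chr15:98743705-98744385). It was followed among named genes by a region 34.1 kb from Fosl2, an AP-1 subunit (D14 fold 10.1, sham fold 11.5), and one inside Bach2, a leucine-zipper repressor that competes with AP-1 (D14 fold 5.76, sham fold 10.7). The nearest D56 peak to the Fosl2 region was 52.0 kb away.

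Among the other genes of this ranking, Sdc4, the matrix proteoglycan syndecan 4, had a D14 fold of 9.49 and a sham fold of 10.5, and Ddr2, a receptor kinase for fibrillar collagen, had 9.0 at D14 and 10.4 in sham. Nr4a2, an orphan nuclear receptor induced early by stimuli, had 11.8 at D14 and 10.17 in sham. The regions at Sdc4 and Nr4a2 each had a D56 peak 0.461 kb away, so Runx1 was still called next to them at D56. Il1r2, the decoy receptor for interleukin 1, had a D14 fold of 3.58 and a sham fold of 10.1. Its D14 pileup was 16, and it was the region of the 15 that was not callable at the D56 depth. Runx1t1, the corepressor gene known as a fusion partner of RUNX1 in human leukaemia, had a D14 fold of 7.72 and a sham fold of 9.97, with the nearest D56 peak 113 kb away. Others among the 15 were at Hoxb3, Ppm1k, a mitochondrial phosphatase (9.3 kb away), and Rgs16, a regulator of G-protein signalling (9.2 kb away). Of the 15, 3 had no named coding gene within 100 kb.

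In the D14 ranking, gene ends came first. Of the 15 D56-negative regions with the highest D14 fold, 7 lay within 1 kb of a gene end, 5 inside a gene and 3 outside, and none had a D56 peak within 1 kb. Lrp3, a member of the LDL receptor family, held the highest, with 24.8 at D14 and 6.10 in sham (chr7:35215107-35215668). Tcf20, a transcriptional coregulator, had 23.6 at D14 and 6.87 in sham, and Tnfrsf22, a decoy receptor for the death ligand TRAIL, 22.9 at D14 and 5.36 in sham. The lipid hydroxylase gene Cyp2u1 had a D14 fold of 22.8 and the stress kinase gene Map3k9 one of 22.4. Further down were Rasgrf1, a Ras exchange factor (34.6 kb away), Psmf1, a proteasome inhibitor (29.3 kb away), Plaat3, a phospholipase, and Odc1, the first enzyme of polyamine synthesis (34.1 kb away). The 15 also held regions at or near Btbd16, Zfp560, Zfp934, Serf1, Agap1 and Trerf1. Their D14 folds ran from 20.3 at Trerf1 upwards, while sham folds were between 3.17 at Agap1 and 7.23 near Zfp934. The regions at Agap1 and near Rasgrf1 were not callable at the D56 depth.

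At 5190 of 20665 protein-coding genes (25.1%) the gene or the 10 kb on either side held a D56-negative region. Most of these genes had 1 such region (3591 genes), and 141 had 5 or more. At 3721 of the 5190 a 3-library region was also present, so Runx1 was still called at D56 elsewhere at the gene. At 1469 genes all shared regions were D56-negative, and 1403 of the 5190 had no region with a D56 peak at all. No coding gene lay within 10 kb of 2316 D56-negative regions (27.5%). Compared with regions called at D14 alone, D56-negative regions sat nearer to 3-library regions, at a median of 21.2 kb against 33.7 kb. Within 10 kb of one were 34.5% of them (33.5 to 35.5), against 24.5% (24.04 to 24.98) of D14-alone regions and 47.6% (45.4 to 49.7) of sham-alone regions.

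The genes with the most D56-negative regions were mainly long genes and a few compact, densely covered loci. Smg6, a nonsense-mediated decay endonuclease, and Tns1, a focal adhesion protein that binds actin, had 16 each and are 239 and 214 kb long. Rora, a nuclear receptor of the clock, and Rad51b, a DNA repair gene, had 14 each over 735 and 551 kb. At Rora 12 of the 14 were callable at the D56 depth and only 1 region had a D56 peak. Fndc3b and the calcium channel gene Cacna1c had 11 each, Syn3 10, and Spidr, Nav1 and Tgfbr3 9 each. Spidr, a DNA repair scaffold gene, stood apart in that 1 of its 9 was callable at that depth. Counts were not corrected for gene length.

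Thbs1, which encodes the matricellular protein thrombospondin 1, an activator of latent TGF-beta, had 12 D56-negative regions in 12.9 kb, the densest of the largest clusters. They began 4.77 kb into the gene and ran past its far end (chr2:118116643-118129505), with no 3-library region between them. Their D14 folds ran from 2.64 to 5.67 with a median of 4.23, and their sham folds from 2.79 to 6.55 with a median of 3.72. Pileups were between 22 and 45 at D14 and between 20 and 34 in sham, so each was a low peak, and 4 of the 12 were callable at the D56 depth. At the other end of the gene 1 region held peaks of all 3 libraries, with D56 folds of 5.26, 5.18 and 3.76. Thbs1 thus kept its D56 calls at 1 gene end, while the calls along the body and beyond the far end were in the D14 and sham lists only. Fsip1, the neighbouring gene, had 11 D56-negative regions and no D56 region, but 8 of the 11 are the same regions as at Thbs1.

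Hoxb3, a homeobox gene of body-axis patterning that overlaps Hoxb4, had 14 D56-negative regions in its 40.8 kb and the 10 kb on either side. By sham fold the highest had a D14 fold of 3.79 and a sham fold of 10.24 (chr11:96311223-96312641), and the next a D14 fold of 4.03 and a sham fold of 9.37 (chr11:96341984-96342955). D14 pileups at these were 36 and 20 and sham pileups 73 and 51. Over the 14, D14 folds reached 6.41. Of the 14, 5 were callable at the D56 depth. Around them lay 0 regions called at D14 alone and 9 called in sham alone, in contrast to the whole genome, where D14-alone regions were the more numerous. Hoxb2 next to it had 5 D56-negative regions, each shared with Hoxb3, and no D56 region. Hoxa3 in the other cluster had 13, of which 11 were callable at the D56 depth, beside 4 D14-alone and 9 sham-alone regions.

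**Figure D4:**
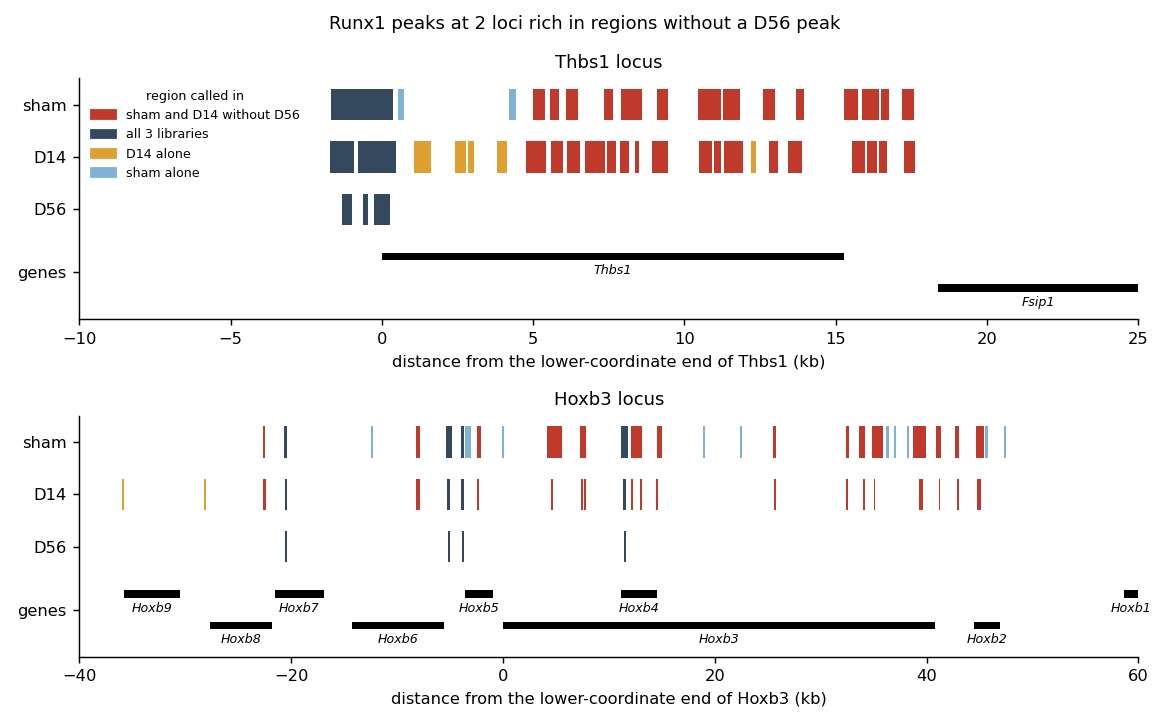
Runx1 peaks of sham, D14 and D56 (top to bottom) and genes at the Thbs1 and Hoxb3 loci, against distance in kb from the lower-coordinate end of the gene; colours give the libraries that called the region. Red peaks of sham and D14 run from 4.77 kb into the Thbs1 gene to beyond its far end with no D56 peak beneath them, and at Hoxb3 they alternate with blue peaks called in sham alone.

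Clusters of D56-negative regions were the exception. Joined where they lay up to 10 kb apart, the regions formed 7038 groups, of which 6031 held 1 region and 238 held 3 or more. The largest held 20, spanning Neat1, the long noncoding RNA that builds paraspeckles, and Frmd8 (chr19:5806060-5851824). Next after Thbs1 came 11 regions around Dusp1, a phosphatase that switches off stress kinases, 10 in the Hoxa cluster and 9 around Nfkbia, the inhibitor of NF-kappaB. At Nfkbia 3 of 9 were callable at the D56 depth and 1 region had a D56 peak. Smaller groups of 6 lay near Lif, an IL-6 family cytokine gene, and at Bcl6, a transcriptional repressor gene.

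Genes whose D56-negative regions came with no D56 region of any kind were led, after Fsip1, by Antxr1, a collagen-binding receptor of the anthrax toxin, with 8. Its highest region had a D14 fold of 10.5 and a sham fold of 6.13, and 5 of the 8 were callable at the D56 depth. Igf2r, the receptor that clears IGF2 and can bind latent TGF-beta, had 6, of which 5 were callable. The highest, at a gene end, had a D14 fold of 11.5 and a sham fold of 7.73 (chr17:12769486-12770155). Adgrd1, an adhesion G-protein receptor gene, also had 6. With 5 each came Hoxb2, Sphk1, Cgnl1, Rbm20, Mbp and Peli2. Sphk1 makes the lipid signal sphingosine 1-phosphate, and its highest region had a D14 fold of 9.91 and a sham fold of 8.04. At Cgnl1, a junction protein gene, all 5 were callable at the D56 depth, and at Mbp, the myelin basic protein gene, 1 of 5 was.

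Runx1, Runx2 and Cbfb each held 2 D56-negative regions, while 25.1% of all coding genes held at least 1. Runx1 had 2 D56-negative regions inside its body, with D14 folds of 7.83 and 5.38 and sham folds of 3.78 and 4.81, beside 2 3-library and 20 D14-alone regions. Runx2, the RUNX factor of bone, had 2 as well, with 7.60 and 4.70 at D14 and 5.51 and 4.35 in sham, and Cbfb had 2 with 5.59 and 9.23 at D14 and 4.92 and 4.80 in sham. Runx3 had none. One region of each of Runx1 and Runx2 and both of Cbfb were callable at the D56 depth. Over the 10 RUNX family and partner genes, 9 of 25 shared regions lacked a D56 peak (36.0%, 20.2 to 55.5), an interval that takes in the 38.5% over all shared regions.

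Gene lists were then described by the share of their shared regions that lacked a D56 peak. Of 415 genes in 27 lists, 409 were matched on these chromosomes. The share was above 38.5% in 17 lists. Its interval lay wholly above in 6 (pericyte and smooth muscle markers, fibrotic and adventitial fibroblast markers, contractile genes, mesenchymal transcription factors and the TGF-beta pathway) and wholly below in 1, the cell cycle genes. At the D56 depth the intervals of the TGF-beta, adventitial and pericyte lists lay above the 29.4% of all, and those of the other 3 took it in. At equal list length, of these 6, the TGF-beta interval alone lay above the 8.15% of all (8 of 41 regions, 19.5%, 10.23 to 34.0), and the cell cycle interval took it in (0 of 17, up to 18.4%). Counted in gene bodies alone, the contractile and mesenchymal intervals stayed above and the TGF-beta one began just below (38.48, against 38.53). At a reciprocal overlap of 50% those of the TGF-beta and mesenchymal lists stayed above. With the gene that held the most D56-negative regions left out of each list, the mesenchymal interval alone stayed above (58.3%, 44.3 to 71.2). The gene left out there was Nfia, with 7 D56-negative and 10 3-library regions, and the share rose from 53.8%. This setting was thus no strict check of the mesenchymal list, and leaving out its genes with D56-negative shared regions alone was not tried. The other 5 shares fell, to between 45.7% for the TGF-beta list without Tgfbr3 (35.3 to 56.5) and 57.1% for the fibrotic list without Pmepa1. None of the 6 stayed above under each of these settings. Lists share genes, regions at a gene are not independent, and lists differ in strength and position, so for these 7 lists the median folds and gene-end shares are given as well. The region that leads a gene below is the one with its highest sham fold. Over all shared regions the median fold was 9.69 at D14 and 5.33 in sham and 48.6% lay at gene ends.

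TGF-beta pathway genes had 46 D56-negative regions among 93 shared ones (49.5%, 39.5 to 59.4), at 13 of 21 genes. Their shared regions had median folds of 9.05 at D14 and 5.18 in sham, and 33.3% lay at gene ends, below the 48.6% of all. At the D56 depth 35 of 81 lacked a D56 peak (43.2%, 33.0 to 54.1, against 29.4% of all). Tgfbr3, the co-receptor betaglycan, had 9 such regions, with a D14 fold of 5.50 and a sham fold of 6.76 at the one highest in sham and 10.9 and 4.49 at the one highest at D14. Smad3, a transducer of the signal, had 7, led by a D14 fold of 10.21 and a sham fold of 6.67. Smad7, the inhibitory Smad, had 6 and Ski, a repressor of Smad complexes, 5. Each of these 4 genes also had 3-library regions, 3 at Tgfbr3, Smad7 and Ski and 6 at Smad3, and no gene of the list with D56-negative regions was without a D56 region. The BMP pathway and Id genes had 13 of 34 (38.2%, 23.9 to 55.0), with 2 each at Id2 and Id3, inhibitors of bHLH factors, and 1 each at Id1 and the inhibitory Smad6.

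Collagen and matrix genes had 37 D56-negative regions among 86 (43.0%, 33.1 to 53.6), and 17 of 21 genes held at least 1. Col4a1, a basement membrane collagen, had 5, and its highest sham value was 5.35 with a D14 fold of 7.56. Col5a1, which sets fibril diameter, had 4, led by a D14 fold of 10.1 and a sham fold of 7.79. Fbn1, the microfibril protein fibrillin 1, and Loxl1, an elastin cross-linker, had 4 each beside 6 3-library regions each. At the D56 depth the share of the list was 30.8%, near the 29.4% of all. Matrix proteases and inhibitors had 27 of 54 (interval 37.1% to 62.9%). Adamts2, the procollagen N-proteinase, had 7, of which 2 were callable, led by a D14 fold of 6.87 and a sham fold of 8.55. Timp3, a matrix-bound protease inhibitor, had 6, of which 5 were callable, and lies within the Syn3 gene counted above. Timp2, another inhibitor of the same family, had 2.

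Contractile and actin genes had 22 of 40 (55.0%, 39.8 to 69.3) at 12 of 16 genes, with median folds of 8.42 at D14 and 4.95 in sham over their shared regions and 55.0% of them at gene ends. Cald1, the actin-binding caldesmon, had 6, with D14 folds between 4.29 and 8.74 and sham folds between 2.53 and 4.77. Tagln, the smooth muscle protein SM22, had 2, both callable at the D56 depth, and no other Runx1 region. The one with the higher sham fold lay at a gene end (chr9:45935780-45936221), with 9.34 at D14 and 5.31 in sham. Mrtfb, a coactivator of serum response factor, and Vcl, the adhesion protein vinculin, had 2 each. At the D56 depth the share of the list was 43.3% (27.4 to 60.8), whose interval takes in the 29.4% of all. YAP-TEAD genes had 20 of 47 (42.6%, 29.5 to 56.7), among them 4 at the DNA-binding factor Tead1, 3 each at its coactivator Wwtr1 and the matricellular gene Ccn1, and 2 at Ankrd1. Of the 4 at Tead1, 1 was callable at the D56 depth.

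For markers of fibroblast subsets, the fibrotic and adventitial intervals lay above the 38.5% of all and the alveolar one took it in. These intervals overlapped one another, so no difference between the subsets is shown. Fibrotic fibroblast markers had 11 of 18 (61.1%, 38.6 to 79.7), at 6 of 17 genes. Their shared regions were weak (median fold 7.52 at D14 and 4.49 in sham), and 38.9% of them lay at gene ends. Cthrc1, Tnc, Spp1, Grem1, Lrrc15, Scx, Ncam1 and Col8a1 had D14-alone regions and no shared region. Sfrp1 and Cdh11 each had a 3-library region and no D56-negative one. Pmepa1, a TGF-beta-induced inhibitor of that pathway, had 3, with D14 folds of 6.31, 11.1 and 16.5 and sham folds of 6.17, 4.79 and 5.18, and all 3 were callable at the D56 depth. Adam12, a metalloprotease of activated mesenchyme, and Fst, the activin antagonist follistatin, had 2 each and no D56 region. Neither Fst region was callable at the D56 depth. The list also holds Runx1, described above. Adventitial markers had 21 of 38 (55.3%, 39.7 to 69.9) at 13 of 18 genes, with 3 each at Has1, a hyaluronan synthase, Igfbp4, an IGF-binding protein, and Col14a1, a fibril-associated collagen. Their shared regions had median folds of 5.95 at D14 and 5.12 in sham, and 42.1% lay at gene ends. Ly6a, the surface antigen Sca-1, had 2 and no D56 region, led by a D14 fold of 5.91 and a sham fold of 9.48. Alveolar fibroblast markers had 26 of 55 (47.3%, 34.7 to 60.2), with 8 at the cytoskeletal linker Macf1, 4 each at the lung mesenchyme factors Tbx2 and Tbx4 and 3 at Limch1. With Macf1 left out they had 18 of 44 (40.9%, 27.7 to 55.6). Tbx4 had no D56 region, while its neighbour Tbx2 had 5. Of the 4 D56-negative regions at each of Tbx4 and Tbx2, 1 was callable at the D56 depth. At the D56 depth 7 of 14 fibrotic regions lacked a D56 peak (interval 26.8% to 73.2%), and the share was 46.7% for adventitial (30.2 to 63.9) and 32.4% for alveolar markers.

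**Figure D5:**
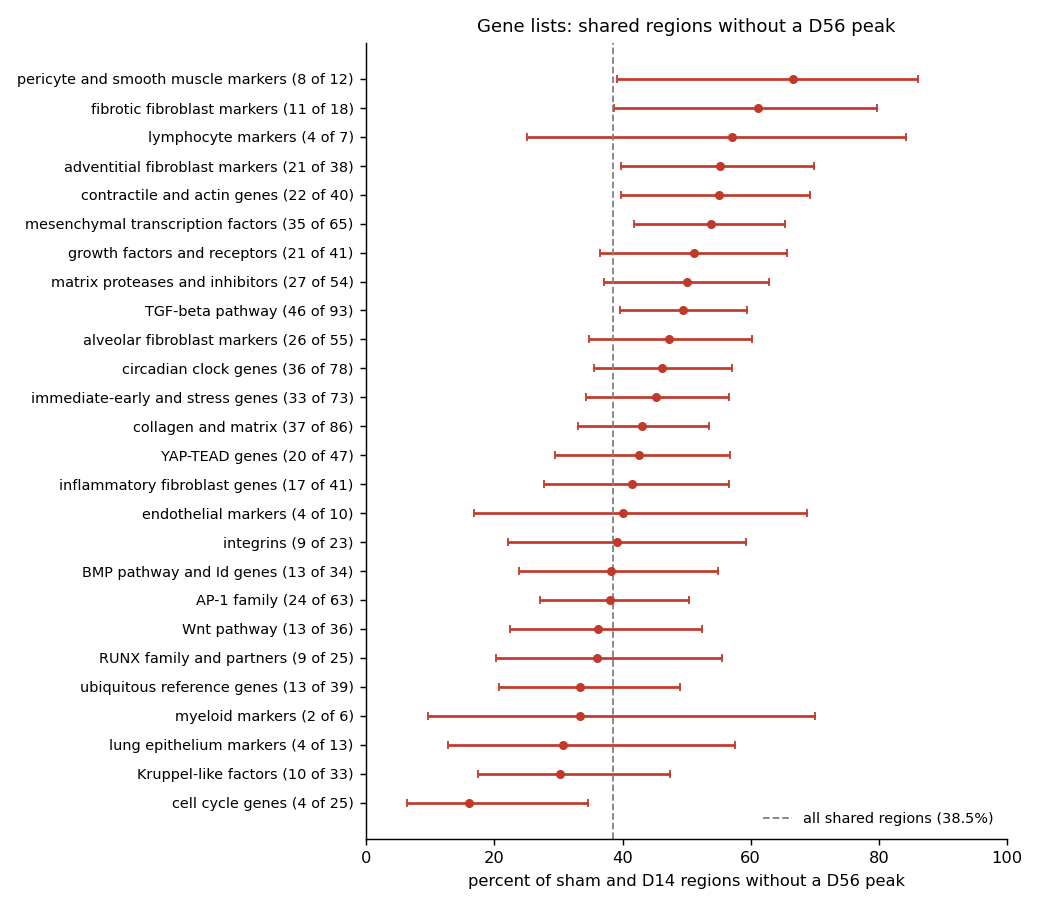
Percent of shared regions without a D56 peak for 26 gene lists, with the counts beside each name and 95% Wilson intervals; the dashed line marks the 38.5% of all shared regions. Of the intervals, 6 lie to the right of the line and that of the cell cycle genes, at 16.0%, to its left.

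Mesenchymal transcription factors had 35 of 65 (53.8%, 41.9 to 65.4), and 6 of the 13 genes concerned had no D56 region. Their shared regions had median folds of 7.17 at D14 and 4.91 in sham, and 40% lay at gene ends. Nfia, which holds 10 3-library regions, had 7, and Twist2, a bHLH repressor of dermal and mesenchymal cells, had 3, with D14 folds of 5.39, 10.395 and 6.87 and sham folds of 3.95, 6.19 and 7.06. The D56-negative regions of this list were weak at D14 (median fold 4.55, against 6.21 over all), and 19 of the 35 were callable at the D56 depth. Growth factors and receptors had 21 of 41 (51.2%, 36.5 to 65.7), with 4 at the EGF receptor gene Egfr, 3 each at Igf1r and Fgf2 and 2 at Fgfr1. The 3 at Igf1r were callable at the D56 depth. Integrins had 9 of 23 (39.1%, 22.2 to 59.2), and with Itgb3 left out 6 of 20 (30.0%, 14.5 to 51.9). Itgb5 and Itgb3, beta subunits of integrins that bind the alpha v chain, had 3 each. Itgb3 had no D56 region, and none of its 3 was callable at the D56 depth.

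Stress-response genes differed in what lay around their D56-negative regions. AP-1 family genes had 24 of 63 (38.1%, 27.1 to 50.4), with 4 at Atf3 and 3 each at Bach2, Fosb and Fosl1. They also held 33 D14-alone and 37 sham-alone regions, and at Atf3 there were 0 D14-alone and 22 sham-alone. Immediate-early and stress genes had 33 of 73 (45.2%, 34.3 to 56.6), at 14 of 18 genes, with 32 D14-alone and 35 sham-alone regions beside them. Dusp1 had 6, of which 2 were callable at the D56 depth, with D14 folds between 3.42 and 10.417 and sham folds between 2.21 and 6.43. Nr4a1, an orphan nuclear receptor, had 5, with 3.72 to 6.49 at D14 and 4.29 to 7.78 in sham. Btg2, an antiproliferative gene, and Gadd45b, a stress sensor, had 3 each. Over the whole genome 32186 regions were D14-alone and 2004 sham-alone. Other lists ranged widely, for example 101 D14-alone and 1 sham-alone at fibrotic markers and 66 and 18 at mesenchymal transcription factors. Inflammatory fibroblast genes had 17 of 41 (41.5%, 27.8 to 56.6), with 9 at Nfkbia and 2 at the monocyte chemokine genes Ccl2 and Ccl7, which share both. With Nfkbia left out they had 8 of 31 (25.8%, 13.7 to 43.2), a share below the 38.5% of all with an interval that takes it in. Kruppel-like factors had 10 of 33 (30.3%, 17.4 to 47.3), with 3 at Klf6.

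Circadian clock genes had 36 of 78 (46.2%, 35.5 to 57.1). Of the 36, 29 were callable at the D56 depth, and the share there was 42.0% (31.1 to 53.8), against 29.4% of all. Rora held 14 of the 36. Without it the list had 22 of 63 (34.9%, 24.3 to 47.2), and at the D56 depth 17 of 56 (30.4%, 19.9 to 43.3), and both intervals took in the share of all. Per2, a repressor of the clock, had 7 beside 2 3-library regions, led by a D14 fold of 6.02 and a sham fold of 6.50, and Npas2, a partner of Bmal1, had 5, all callable. Wnt pathway genes had 13 of 36 (36.1%, 22.5 to 52.4). This count takes in Tcf4, a bHLH factor gene that is not the Wnt effector Tcf7l2. With Tcf4 left out the list had 11 of 32 (34.4%, 20.4 to 51.7). Wnt11, a ligand of the noncanonical branch, had 2 with no D56 region, and the one at its start had a D14 fold of 13.5 and a sham fold of 6.52. Wnt2b, another ligand, had 1, at its start, with 13.3 at D14 and 5.81 in sham.

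Cell cycle genes had the lowest share, 4 of 25 (16.0%, 6.40 to 34.7). The 4 lay at Ccnd2, Mcm2, Rb1 and Cdk4, genes of G1 progression and replication licensing. Shared regions of this list were strong (median fold 13.4 at D14 and 5.97 in sham) and 84.0% lay at gene ends, above the 48.6% of all. Ubiquitously expressed reference genes, with 74.4% at gene ends, had 13 of 39 (33.3%, 20.6 to 49.0).

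Lists of markers of other cell types in the lung had few shared regions. Pericyte and smooth muscle markers had 8 of 12 (66.7%, 39.1 to 86.2), with 4 at Notch3 and 1 each at Des, Postn and Mcam. The Postn region is counted in the fibrotic fibroblast list as well. Shared regions of the pericyte list were weak (median fold 6.51 at D14 and 3.71 in sham), and 50% of them lay at gene ends. Endothelial markers had 4 of 10, 2 each at Pecam1 and Vwf. Myeloid markers had 2 of 6, at Mrc1 and Cd68, and lymphocyte markers 4 of 7, with 2 at Cd2. Lung epithelium markers had 4 of 13, among them Scgb1a1 and Sftpc with no D56 region, and mesothelium markers had no shared region. Peaks at marker genes say nothing of the amount of another cell type, whose part in the lists was not tested.

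Promoters made up a minor share of D56-negative regions. Of the 8433, 1167 (13.8%) met a 300-base window around a RefSeq start, from 250 bases before to 50 after. In 1356 windows of 1216 genes no region of another kind was met. The RUNX core TGTGGT, on either strand, was in 12.0% of these windows (10.4 to 13.9), against 10.6% of windows met by 3-library regions alone (10.0 to 11.2), 14.3% of those met by D14-alone regions (12.9 to 15.7) and 16.7% of all 31365 windows. The intervals of D56-negative and 3-library promoters overlapped, and both lay below the share of all windows. The AP-1 site TGANTCA was in 7.15% of D56-negative windows (5.90 to 8.65), against 3.80% of 3-library windows (3.42 to 4.22), 9.42% of D14-alone windows and 7.85% of all. The ETS core CCGGAA, on either strand, was in 24.6% of D56-negative windows (22.4 to 27.0), against 32.9% of 3-library windows (32.0 to 33.9), 14.8% of D14-alone windows and 15.1% of all.

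Base composition differed between these promoters, with a median GC content of 58.7% in D56-negative windows, 63.7% in 3-library windows, 59.3% in D14-alone windows and 53.0% in all. Within windows under 50% GC the AP-1 site was in 16.4% of 225 D56-negative windows (12.2 to 21.8), against 6.53% of 490 3-library windows (4.66 to 9.07). Between 50 and 60% GC it was in 8.22% (6.18 to 10.9), against 5.29% (4.50 to 6.22). Between 60 and 70% GC it was in 3.93% (2.39 to 6.38), against 3.47% (2.94 to 4.10). Over 70% GC the order was the other way, with the AP-1 site in 1 of 214 D56-negative windows (0.467%, 0.0825 to 2.60), against 1.79% of 1955 3-library windows (1.29 to 2.48). The AP-1 intervals of D56-negative and 3-library windows were apart under 50% GC alone. In D14-alone windows the AP-1 share was higher than in D56-negative ones at each GC level. It was 20.4% under 50% GC, 10.8% between 50 and 60%, 4.82% between 60 and 70% and 4.66% over 70%. The intervals of D14-alone and D56-negative windows overlapped below 70% GC and were apart above it. The RUNX core at under 50% GC was in 16.4% of D56-negative and 13.7% of 3-library windows, and over 70% GC in 2.80% and 5.52%, with overlapping intervals in both. Its share in D56-negative windows was below that in windows with no Runx1 region at each GC level. Those intervals were apart between 50 and 60% GC alone (14.2%, 11.5 to 17.4, against 20.9%, 19.8 to 21.9). A match is a string of letters and not a shown binding site.

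Of the list genes, 30 had a promoter window met by D56-negative regions alone, 4 of them with the RUNX core and 4 with the AP-1 site. Beside Meox2, Ptgs2, Col6a1 and Acta2 shown above, they include Clock and Ankrd1 with the RUNX core and Ltbp3, which binds latent TGF-beta, with the AP-1 site. Col4a1 and Col4a2, which share a start region on opposite strands, had 10.7 at D14 and 3.39 in sham. Vcan, the proteoglycan versican, had 11.7 at D14 and 6.10 in sham, Des, the muscle intermediate filament desmin, had 8.02 at D14 and 6.93 in sham. Smad1, a BMP transducer, had 7.81 at D14 and 5.58 in sham. Zeb2, a repressor of epithelial genes, had 3 such promoter regions, with D14 folds of 3.79, 4.47 and 8.49 and sham folds of 5.71, 4.36 and 2.67. A region can meet a window without its summits. At Clock, Ankrd1, Ltbp3, Vcan and Col4a2 the sham and D14 summits were not both inside the window. The same held for the Zeb2 regions with D14 folds of 3.79 and 4.47.

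Of 919 microRNA hairpins in the RefSeq table on the chromosomes with a sequence table, 25 lay within 1 kb of a D56-negative region. The cluster of miR-23a, miR-27a and miR-24-2 on chromosome 8 lay between a pair of such regions and was chosen after its values were seen. The region before it (chr8:84207868-84208279) had a D14 fold of 4.83 and a sham fold of 4.03, and the region after it (chr8:84209837-84210825) 6.49 at D14 and 4.22 in sham. The 3′ arms of the cluster are given from RefSeq (GRCm38.p6) with the seed, bases 2 to 8, in capitals, and no seed is shared between them.
mmu-miR-23a-3p: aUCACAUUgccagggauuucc
mmu-miR-27a-3p: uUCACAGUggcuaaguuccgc
mmu-miR-24-3p: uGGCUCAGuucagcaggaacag
Mir199b lay 953 bp from a D56-negative region with a D14 fold of 4.96 and a sham fold of 4.20, and Mir152 323 bp from one with 13.0 at D14 and 3.64 in sham.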

How the data were processed

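The authors deposited 1 peak list per Runx1 ChIP library (sham, D14, D56); nothing was pooled. The build was mm10 and the tools named were BWA, SAMtools and MACS2, per the submitters' processing notes. Per the file headers, MACS 2.0.10.20120913 called each ChIP library against its own input at a q-value cutoff of 0.01, with an effective genome size of 1.87 Gb, background windows of 1 kb and 10 kb, and ChIP and input brought to the size of the smaller one. Each peak has, per the file headers, a pileup (the fragment signal at the summit), p-value and q-value on a −log10 scale, and a fold enrichment, which is a ratio to local background. All of these are the authors' values. Alignment settings were not stated there.

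Sample titles gave the groups. All peaks of chromosomes 1 to 19 were merged at an overlap of 1 bp or more, and where a region held several peaks of a list the highest fold was taken. The members and lists were chosen with earlier results of these data known. Genes came from a RefSeq table of GRCm38.p6 without strand or exons, so either gene end was used and exons and introns were not told apart. A region belonged to a gene in its body or within 10 kb. Promoter windows were given for 81.5% of the coding genes on the 18 chromosomes covered. Python 3.11.15, pandas 2.3.3, NumPy 2.4.6 and SciPy 1.17.1 were used. Shares carry 95% Wilson intervals, for counting error only. Regions of 1 library are not replicates of a condition, so no p-value is given.

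Named genes are the nearest coding gene within 100 kb of the 15 regions with the highest sham fold and the 15 with the highest D14 fold, the 15 genes with most regions, the 10 with most among those without a D56 region, up to 4 per list, and Runx1, Runx2, Runx3 and Cbfb. Unnamed gene models were passed over. A few genes that the rule names are not reported here. The promoter genes, the microRNAs and the genes of clusters outside that rule were chosen after their values were seen. The merging was tested on simulated data, where 20000 of 20000 planted regions fell in their class. Planted regions lay far apart and the peaks of each always overlapped, so this checked the code alone. Closely spaced peaks, such as those at Thbs1, were not simulated. Alternatives were other overlap rules, stricter thresholds, equal list lengths, other distances and gene assignments, another motif, chromosome X added, and, added after the data were seen, the scaled depth and lists without their gene with the most regions.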

Additional observations from a re-analysis of the deposited data

How the results depend on the processing

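With 1 library per condition no replicate could be left out. No paired analysis was possible because each condition has a single library. Values below are the number of D56-negative regions (8433), their share of shared regions (38.5%), their share within 1 kb of a gene end (27.0%), the coding genes that hold one (5190), their median sham fold (4.33) and their share within 10 kb of a 3-library region (34.5%). With each list limited to its 14704 strongest peaks these became 886, 8.15%, 41.2%, 955, 5.59 and 26.3% by p-value, and 944, 9.63%, 35.8%, 925, 5.49 and 18.5% by fold. A fold of 5 or more gave 2983, 25.9%, 33.9%, 2544, 5.94 and 22.4%. The scaled depth gave 5367, 29.4%, 29.4%, a median sham fold of 4.69 and 33.2%. These settings keep fewer peaks by construction. Reciprocal overlap of 50% moved the shares to 44.8%, 31.2% and 26.6% and the median fold to 4.63, and a −log10 q of 5 or more to 40.6%, 29.2%, 30.2% and 4.64. Merging peaks under 500 bp apart gave shares of 36.8%, 25.1% and 28.8%, and asking for no D56 peak within 1 kb gave 34.7%, 24.6% and 27.4%. The gene-end share was 38.1% at 2.5 kb and 20.03% for coding genes only. Coding genes numbered 3448 by gene body. The longer motif TGTGGTT was in 3.83% of D56-negative promoters. Other causes were not tested. Under these settings 29 other values moved by less than their interval, or by less than 1.5 times for counts. Among single lists, equal list length gave 0 of 26 for AP-1 genes and left 1 shared region for pericyte markers. The weakest peak had a pileup of 14 in sham, 13 at D14 and 10 at D56, which limits what could be called.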

Other observations

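The share of shared regions without a D56 peak was lowest on chromosome 7, at 33.0% of 1544 shared regions (30.7 to 35.4), and highest on chromosome 18, at 43.6% of 721 (39.98 to 47.2). Both intervals lie apart from the 38.5% of all, but these chromosomes were picked as the extremes. The intervals of chromosomes 1 (39.3 to 44.5) and 5 (33.3 to 38.3) lie apart as well. That of chromosome 13 begins just above (38.534, against 38.530). Strength and gene-end share were not compared between chromosomes.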
